A study of Aspergillus nidulans with 6 samples.

Results

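The genes described here act in 3 routes of sugar metabolism and share a peak of the transcription factor AtfA at their promoters. They are *fbaA* (AN2875) and *tpiB* (AN5908) of glycolysis, AN0285 and AN5907 of the pentose phosphate pathway and *galD* (AN6182) of galactose use. The members were taken as peaks that overlap 4 fixed intervals, since *tpiB* and AN5907 share 1 of them, and the intervals were selected on the presence, position and score of peaks in the same lists. Their 21 peaks are part of the 2723 peaks in 6 libraries, and their 4 regions are part of the 707 regions into which overlapping peaks of all libraries merge. Each interval is exactly 1 merged region, and no library had more than 1 peak in any of them.

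The peaks come from ChIP-seq of conidia, the asexual spores of *Aspergillus nidulans*. AtfA was precipitated through its FLAG tag. All libraries are from the *atfA*::3XFLAG strain, which is *pyrG89*, *pyroA4* and *veA*+ and has lost its own *atfA* (Δ*atfA*::*AfupyrG*+). It carries the tagged gene under the native *atfA* promoter with a *trpC* terminator, integrated with *pyroA*+. The groups, with 2 libraries each, are Untr. (2 d), conidia of untreated cultures at an age of 2 d, Untr. (3 d), untreated at 3 d, and MSB Tr. (3 d), grown for 3 d with 0.04 mM menadione sodium bisulfite, which raises superoxide inside the cell. An untagged strain or an input library was not analysed here.

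In glycolysis, aldolase splits fructose bisphosphate into a pair of triose phosphates, which triose-phosphate isomerase converts into each other. The pentose phosphate pathway takes glucose 6-phosphate past glycolysis and yields NADPH and ribose phosphate. The Leloir pathway feeds galactose into the same pool of hexose phosphates. AtfA is a bZIP factor, and its orthologue Atf1 of fission yeast is known to bind the cAMP response element (CRE).

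The score of a peak was set on its own library, so scores cannot be compared between lists. Each peak is therefore given by its score percentile, the rank of its score within its list, in which 100 is the highest. The lists hold between 434 and 473 peaks, with a median width of 300 to 400 bp. They hold no read counts, so the depth behind a peak is unknown. The highest score of a list was between 6.85 and 10.9 times the lowest in the 4 untreated lists, but 4.47 and 2.75 times in the lists of MSB Tr. (3 d). Averaged over a whole list, a step in percentile thus stands for a smaller relative step in score in the MSB lists. The spacing of scores around the members is not given here. Distances are given from the transcription start site (TSS) of the study's annotation, which was located on the coordinate system of the lists (*A. nidulans* FGSC A4) by matching peak centres to listed positions. AtfA motif positions are likewise those of the study.

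AtfA peaks lay at *fbaA* and AN0285 in 6 of 6 libraries, at *galD* in 5 and between *tpiB* and AN5907 in 4. *galD* had no peak in Untr. (3 d) replicate 2, and the *tpiB* and AN5907 region had none in replicate 2 of Untr. (2 d) and of MSB Tr. (3 d). Each of the 3 conditions therefore held all 4 regions in at least 1 library. Over all regions, 35.4% were held by 6 libraries, 45.0% by at least 5 and 54.7% by at least 4. Presence was used to choose these genes, so these counts describe the choice. Mean score percentiles were 69.2 ± 7.35 (SD, n = 6) at *fbaA*, 68.5 ± 8.41 (SD, n = 6) at AN0285, 41.1 ± 10.6 (SD, n = 4) at *tpiB* and AN5907 and 40.4 ± 11.6 (SD, n = 5) at *galD*. The regions held by 6 libraries had a median of 68.7 (quartiles 52.1 and 82.8, n = 250), so *fbaA* and AN0285 were near the middle of that class.

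**Figure D1:**
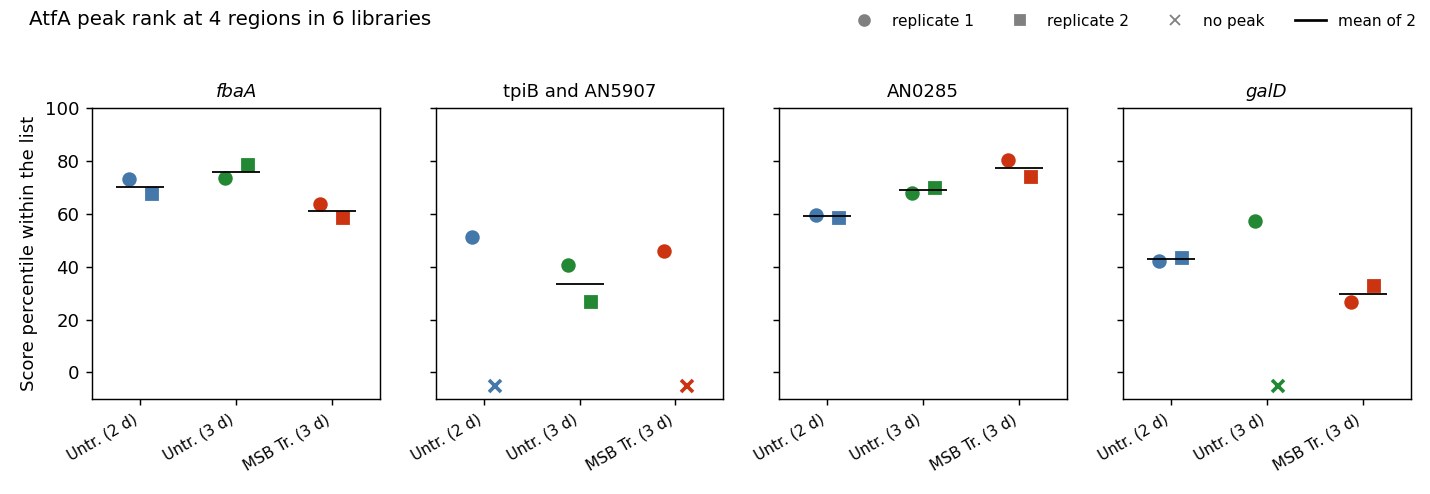
Score percentile of the AtfA peak within its own list (y axis) at 4 regions in 6 libraries, by condition (x axis), with circles for replicate 1, squares for replicate 2, crosses for libraries without a peak and lines for the mean of 2 libraries. At *fbaA* both MSB Tr. (3 d) libraries are below the 4 untreated libraries, and at AN0285 both are above them.

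*fbaA* encodes a putative fructose-bisphosphate aldolase. Its region spans chromosome VI:2526901-2527720, and the gene is read from the minus strand. Its peak reached a score percentile of 73.2 and 67.6 (Untr. (2 d), replicates 1 and 2), then 73.8 and 78.4 for Untr. (3 d), and only 63.9 and 58.3 for the MSB Tr. (3 d) pair. Both MSB libraries were thus below all 4 untreated libraries, and both Untr. (3 d) libraries were above both Untr. (2 d) libraries, as in 17.5% of 263 regions. This difference between the ages was 5.69 percentile points by score and -7.00 with peaks ranked by width. The mean was 61.1 ± 3.95 (SD, n = 2) with MSB and 76.1 ± 3.25 (SD, n = 2) in Untr. (3 d), a difference of -15.0 percentile points (exact permutation test over libraries, two-sided, p = 0.333, the smallest that 2 against 2 allows). Against all 4 untreated libraries, with a mean of 73.2 ± 4.41 (SD, n = 4), the difference was -12.1 (exact permutation test, two-sided, p = 0.133, the smallest that 2 against 4 allows). Adjusted over all 250 regions with a peak in 6 libraries, this p was 0.709. This comparison sets MSB conidia of 3 d against untreated conidia of both ages, so age is mixed with treatment in it. Of these 250 regions, 8.00% had both MSB libraries below all untreated ones and 10.8% had both above. The MSB libraries were below both Untr. (3 d) libraries in 25.0% of 296 regions. The score was among the values on which the intervals were selected. The p values at *fbaA* and AN0285 are therefore descriptive and give no independent support for a difference.

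In place, the *fbaA* peak was stable in 5 of 6 libraries. The summit lay 178 bp ahead of the TSS for both Untr. (2 d) libraries and 198 bp ahead of it for both Untr. (3 d) libraries and MSB Tr. (3 d) replicate 1. In MSB Tr. (3 d) replicate 2 it lay 358 bp upstream, and this library alone accounts for most of the range of 180 bp. Of the regions held by 6 libraries, 21.2% had a range as large, while their median was 70 bp. The study's motif at this promoter was inside the peak in 6 of 6 libraries, but the summits lay 230, 230, 210, 210 and 210 bp from it on the side of the TSS, and 50 bp in MSB Tr. (3 d) replicate 2. The median of 210 bp was unlike most genes. Of 203 placed genes with a listed motif, 168 had their median summit within 50 bp of one, a share of 82.8%, and 7.39% had a median as large as that of *fbaA*. The peaks were 500 to 660 bp wide, among the wider ones of each list (width percentiles from 76.5 to 94.4).

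AN0285 encodes a putative 6-phosphogluconolactonase, the hydrolase that follows glucose 6-phosphate dehydrogenase in the oxidative branch of the pentose phosphate pathway. Its region is chromosome VIII:4025441-4026160, upstream of and across the TSS of the gene on the plus strand. Its score percentile was 59.7 and 58.6 at 2 d, then 68.1 and 69.8 for the untreated conidia of 3 d, and 80.6 and 74.1 after MSB. The 3 conditions did not overlap, from the lowest values in Untr. (2 d) to the highest with MSB. This order without overlap was seen in 5 of the 250 regions held by 6 libraries (2.00%), AN0285 included, and the reverse order in 1.20%. It was counted after the values had been seen.

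The mean of AN0285 was 59.2 ± 0.767 for Untr. (2 d), 69.0 ± 1.25 for Untr. (3 d) and 77.4 ± 4.55 for MSB Tr. (3 d) (SD, n = 2 each). The difference was 9.78 percentile points between the untreated ages and 8.40 between MSB and Untr. (3 d) (exact permutation tests over libraries, two-sided, p = 0.333 each, the smallest possible). Both use the Untr. (3 d) libraries and are not independent. Of the regions with a peak in all libraries compared, 17.5% of 263 had the 3 d untreated pair above the 2 d pair (16.7% below), and 27.0% of 296 had both MSB libraries above both Untr. (3 d) libraries. Against all 4 untreated libraries (mean 64.1 ± 5.71, SD, n = 4) the MSB libraries were 13.3 points higher (exact permutation test, two-sided, p = 0.133, adjusted p = 0.709 over 250 regions). Here too age is mixed with treatment, since the untreated libraries are of both ages. The direction was opposite to that at *fbaA*, and a test of the difference between both regions was not made. With peaks ranked by width in place of score, the difference was 2.05 between MSB and Untr. (3 d), but -12.3 between the untreated ages and -4.12 between MSB and all untreated libraries. Against Untr. (3 d), the MSB difference was 5.19 without MSB Tr. (3 d) replicate 1 and 14.3 with the 300 best peaks of each list. No region passed an adjusted or unadjusted p of 0.05 in any of these exact permutation tests (0 of 296, 263 and 250), which designs of this size cannot reach.

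**Figure D2:**
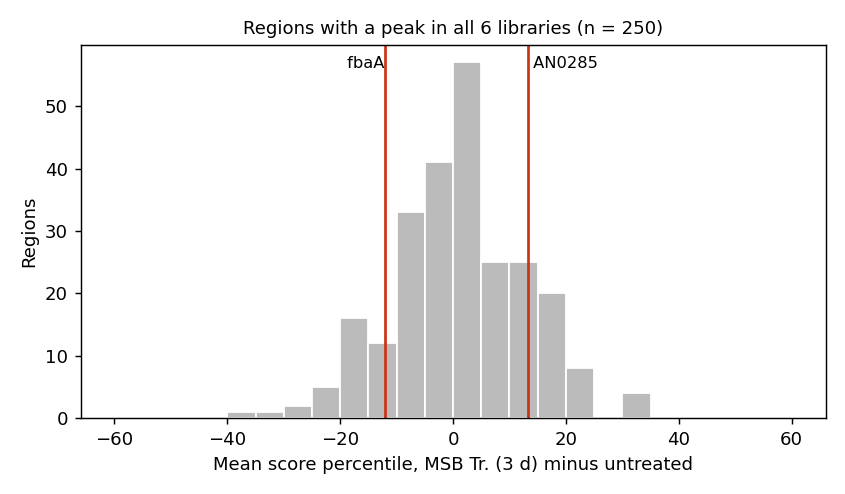
Difference in mean score percentile between 2 MSB Tr. (3 d) and 4 untreated libraries (x axis) for the 250 regions with a peak in 6 libraries (y axis, number of regions). The untreated libraries are of both ages, so age is mixed with treatment. Red lines mark *fbaA* at -12.1 and AN0285 at 13.3, which are on opposite sides of the median of 1.22.

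The summit of the AN0285 peak was in another place in the younger conidia. At 2 d it lay only 22 and 112 bp ahead of the TSS, whereas it lay 402 and 362 bp ahead of it for Untr. (3 d) and 362 and 382 bp for the MSB pair. The Untr. (2 d) summits were thus at least 250 bp closer to the TSS than any of the other 4, which were within 40 bp of each other. The whole range of 380 bp was reached by 5.60% of the regions held by 6 libraries. In 15 of these 250 regions both Untr. (2 d) summits were on one side of the other 4, and AN0285 was the only one with a gap of 250 bp or more (0.400%). That gap was its own value, so this is a description.

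The motif of AN0285 was inside the peak in 6 of 6 libraries. The Untr. (3 d) summits lay 26 and 13 bp from it and the MSB summits 13 and 6 bp, but the Untr. (2 d) summits lay 353 and 263 bp away. The outer ends of the peaks differed less. The far end was 532 and 512 bp upstream in Untr. (2 d) and 492 to 612 bp upstream in the other 4 libraries. Peak widths were 600 and 620 bp at 2 d, 560 and 480 bp for Untr. (3 d) and 640 and 540 bp with MSB, with overlap between conditions. AN0285 had close neighbours among the regions, with a gap of 2160 bp to one held by 6 libraries and of 2080 bp to one held by 4.

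**Figure D3:**
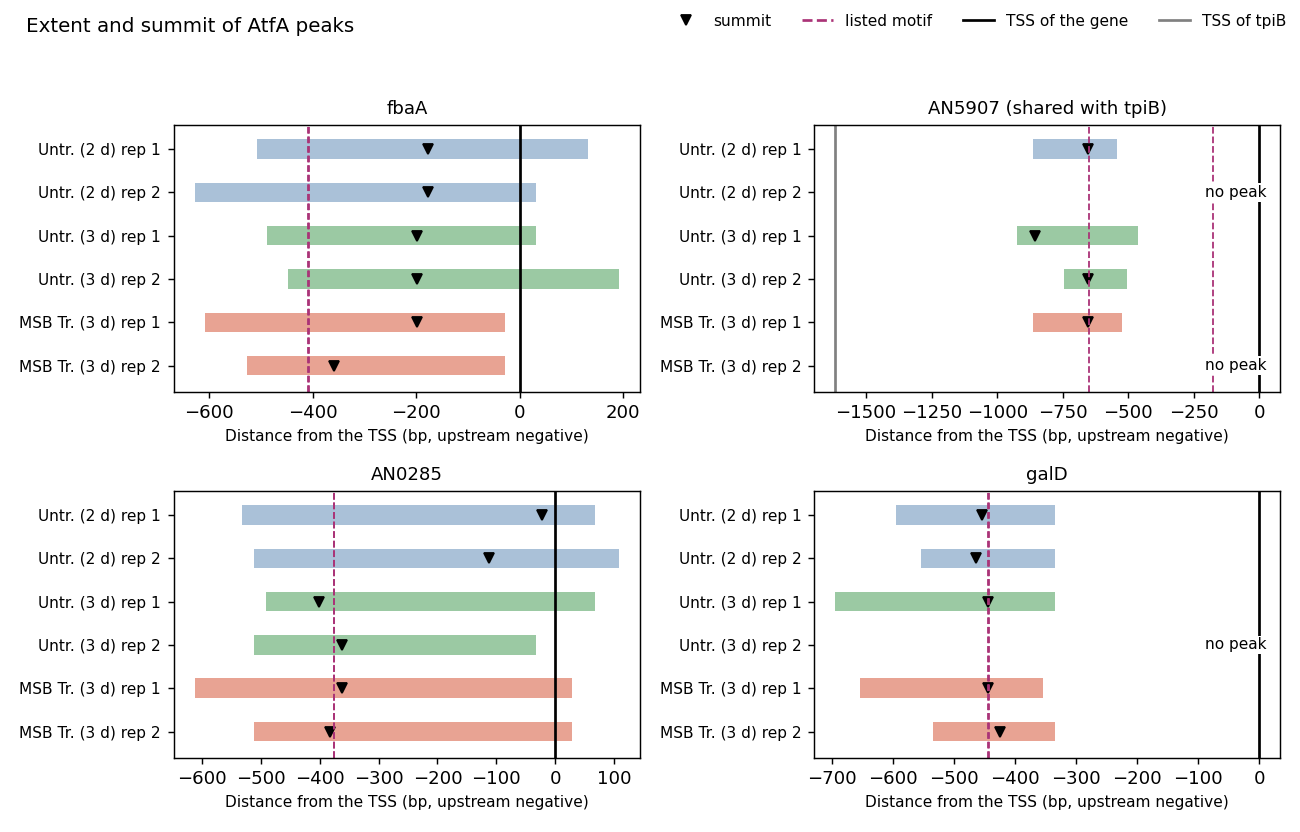
Extent of the peaks (bars) and their summits (triangles) in each library, by distance from the TSS in bp (x axis, upstream negative), with the study's motif positions as dashed lines. The Untr. (2 d) summits of AN0285 are 22 and 112 bp upstream and the other 4 are 362 to 402 bp upstream, beside the motif.

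*tpiB* encodes a putative triose-phosphate isomerase, and AN5907 a putative ribose-5-phosphate isomerase of the non-oxidative branch of the pentose phosphate pathway. Both genes are next to each other on chromosome I and are read away from each other, with 1617 bp between their TSSs. A single region, chromosome I:1843281-1843740, lay between them, so its peaks cannot be assigned to 1 of the 2 genes. Replicate 1 of Untr. (2 d) had a score percentile of 51.4 here, the Untr. (3 d) libraries 40.7 and 26.6, and replicate 1 of MSB Tr. (3 d) 45.8. The lowest value and the highest were both from untreated conidia, and no test was made because 2 libraries had no peak.

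In 3 of the 4 libraries the summit of this region was at the same place, 654 bp upstream of AN5907 and 963 bp upstream of *tpiB*, and 3 bp from a motif listed for both genes. In Untr. (3 d) replicate 1 it lay 200 bp nearer to *tpiB*, in the widest of the 4 peaks (460 bp, beside 240 to 340 bp in the others). The shared motif was inside 4 of 4 peaks. A further motif listed for AN5907 alone was inside none of them. The region stood alone, with 37440 bp to the next region on one side and 110560 bp on the other.

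*galD* encodes a putative galactose-1-phosphate uridylyltransferase, the Leloir enzyme that exchanges galactose phosphate for glucose phosphate on the UDP sugar. Its region, chromosome I:1003741-1004100, was the narrowest of the 4 (360 bp). Its peaks had score percentiles of 42.4 and 43.2 at 2 d, 57.2 for Untr. (3 d) replicate 1, and 26.7 and 32.6 after MSB. The mean was 29.6 ± 4.15 (SD, n = 2) with MSB and 47.6 ± 8.32 (SD, n = 3) in the untreated libraries of both ages with a peak. This difference of -18.0 percentile points was not tested because of the missing peak. With the missing peak counted as percentile 0, MSB against Untr. (3 d) changed from -27.5 to 1.05.

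The summits of *galD* kept one place. They lay 454 and 464 bp ahead of the TSS at 2 d, 444 bp for Untr. (3 d) replicate 1 and 444 and 424 bp with MSB, a range of 40 bp. The motif was 0 to 20 bp from the summit and inside the peak in 5 of 5 libraries. The same peaks span the TSS of the next gene, AN6183, a putative F-box protein gene on the other strand, with summits 56 to 96 bp upstream of it. The summits were thus nearer to the TSS of AN6183 than to that of *galD*, and the peaks cannot be assigned to *galD* alone. The peaks were 200 to 360 bp wide and below the median width of their list in 4 of the 5 libraries, with width percentiles from 3.87 to 53.2.

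Of 29 genes listed for the 3 pathways, 9 could be placed on peaks, the 5 above and 4 others. The other 20 genes were not placed and were not analysed here. Among them, only *pfkA* (AN3223), the phosphofructokinase gene, was one of the 502 genes that the study lists with peak positions. It could not be placed from these positions. The rest were not among the 502 listed genes, so they had no positions to match. In glycolysis 4 of 13 genes were placed. *hxkB*, which the study describes as coding for an atypical hexokinase-like protein, had a peak in 6 of 6 libraries. Its percentiles were 49.5 and 48.4 at 2 d, 38.5 and 37.1 for Untr. (3 d) and 59.5 and 39.7 with MSB, which overlap between MSB and untreated conidia. Both Untr. (3 d) libraries were below both Untr. (2 d) libraries, as in 16.7% of 263 regions. *pgkA*, the putative phosphoglycerate kinase gene, had a peak in Untr. (2 d) replicate 2 and MSB Tr. (3 d) replicate 2 only, at percentiles of 12.1 and 33.0, and was placed by only 2 positions.

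In the pentose phosphate pathway 4 of 9 genes were placed. The putative transketolase gene AN9180 had the highest mean percentile of the 9 placed genes, 80.1 ± 7.73 (SD, n = 6), with values of 70.1 and 85.8 at 2 d, 89.5 and 81.3 for Untr. (3 d) and 82.0 and 71.6 with MSB. Its conditions overlapped. AN10233, a gene with a predicted phosphogluconate dehydrogenase domain, varied least, at 56.2 and 60.6, 57.2 and 58.1, and 53.9 and 48.6 in the same order, so that both MSB libraries were below the 4 untreated ones, as in 8.00% of the 250 regions held by 6 libraries. Its summits were 93 or 113 bp upstream of the TSS, within 34 bp of a motif. For galactose use, *galD* was the only one of 7 genes that the study lists with peak positions, and the only one placed.

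**Figure D4:**
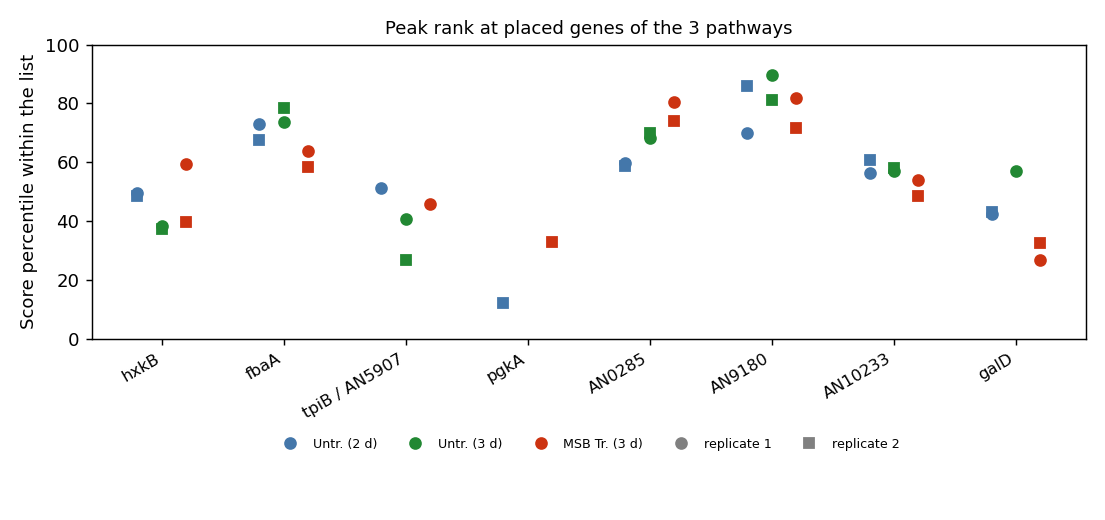
Score percentile within the list (y axis) for each library at the placed genes of the 3 pathways (x axis), coloured by condition, with circles and squares for replicates 1 and 2. AN9180 has the highest mean, 80.1, and *pgkA* has peaks in 2 libraries only.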

How the data were processed

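AtfA ChIP-seq of conidia gave 1 peak list for each of 6 libraries. The authors aligned the reads with Bowtie2, dropped PCR duplicates (Picard), scaled the tracks to RPKM (deepTools) and ran MACS2 with its default settings, which gave a list per library. The deposited score of a peak is a whole number made on that library's track, and the other columns used give start, end and summit in bp. The columns for enrichment, p and q hold only 0. Peak ends fall on a grid of 20 bp, which limits the precision of widths. Depth is unknown, so no interval for counting error can be given.

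Peaks sharing 1 bp or more were joined into regions, and the best-scored peak of a region was taken in each library. Score percentiles (average rank for ties) were compared with exact permutation tests over libraries, with Benjamini-Hochberg adjustment over all regions with a peak in every library compared. These p values come from counting the assignments of libraries to groups. They take their smallest possible value wherever the groups do not overlap, and they do not measure the spread between libraries. Genes were placed where at least 3 listed distances of peak centres from the TSS, and at least 50% of those listed, fell on peak centres at 1 place only. This placed 255 of 502 listed genes. Of these, 244 are in the RefSeq table of another assembly (ASM1142v1), all 244 on the same chromosome. *pgkA* was placed between its placed neighbours. Members and lists were chosen with earlier results of these data known. The genes named are the members and any other of the 29 pathway genes that could be placed. Region merging, the recovery of shifted percentiles and gene placement were checked on simulated data. The permutation tests were not. Python 3.11.15, NumPy 2.4.6, SciPy 1.17.1 and Matplotlib 3.10.9 were used. Alternatives tried were rank by width, an absent peak as percentile 0, the 300 best peaks, an overlap of 50% of the peak, the peak centre for the summit, a replicate block and leaving out each library. A crossed pairing was added after seeing the data.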

Additional observations from a re-analysis of the deposited data

How the results depend on the processing

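Ranked by width instead of score, the difference between Untr. (3 d) and Untr. (2 d) turned to -7.00 percentile points at *fbaA* and -12.3 at AN0285, and MSB against all untreated libraries to -4.12 at AN0285. For *tpiB* and AN5907 the rank by width gave -11.4 for MSB against Untr. (3 d) and -13.7 against all untreated libraries. With an absent peak as percentile 0, the differences at *tpiB* and AN5907 were -10.7 for MSB against Untr. (3 d), 7.97 between the ages and -6.77 for MSB against all untreated libraries, and at *galD* 1.05 and -14.2 for the first 2 of these. The causes were not tested, except that in the last setting the missing peaks set the values. Of the values without a library, only that of *tpiB* and AN5907 for MSB against untreated turned sign (range -0.230 to 12.2, lowest without Untr. (3 d) replicate 2). At *fbaA* MSB against Untr. (3 d) ranged from -17.8 to -12.2 and at AN0285 from 5.19 to 11.6. The centre of the *galD* peak minus its summit was -26 bp on average. With the replicate block, in which libraries of the same number were paired, the differences were -15.0 and 5.69 at *fbaA* and 8.40 and 9.78 at AN0285 (exact sign-flip test of 2 pairs, p = 0.5, the smallest possible). Correlations of deviations between libraries of the same number, over 250 regions, were -0.288 for Untr. (2 d) with Untr. (3 d) and -0.399 for Untr. (2 d) with MSB Tr. (3 d). For Untr. (3 d) with MSB Tr. (3 d) the correlation was 0.236. The signs differed, so the numbers did not pair the libraries alike over all 3 conditions. A crossed pairing of both untreated ages, chosen after seeing the data, called 0 regions, as did the fit without pairs. Of 117 alternative values 105 kept their direction or, for counts and positions, stayed close to the reported value. Part of the 105 could not do otherwise, so their number is no measure of robustness. The replicate block leaves a difference as it is, and so does percentile 0 where no peak is absent. Leaving out 1 library lowers a count of libraries by at most 1. No adjusted p could pass 0.05 in a design of this size, and no sequence of the peaks was used.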
